A study of Homo sapiens with 32 samples.

Results

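The transcripts of 8 cyclins that drive the human cell cycle were followed through 4 p53 genotypes and an etoposide treatment. They were chosen by name as the A, B, D and E cyclins CCNA2, CCNB1, CCNB2, CCND1, CCND2, CCND3, CCNE1 and CCNE2, and all 8 were found among the 35587 genes of the deposited expression matrix. All 8 were also among the 16824 genes with enough signal to be tested. The cells were U2OS, a human osteosarcoma line with wild-type p53. CRISPR-Cas9 editing had given cells with no p53 (KO), cells with 1 p53 allele carrying the A347D change beside a wild-type allele (HET, p53 +/AD), and cells with that change on both alleles (HOM, p53 AD/AD). Unedited alleles were kept in the wild-type cells (WT). Each genotype received either 20 µM etoposide (ETO), a drug that traps topoisomerase II on broken DNA, or DMSO, its solvent, for 24 h. There were 4 libraries of poly-A RNA in each of the 8 groups, and each came from its own plate. How many clones stand for each edited genotype is not given in the sources used here, so that genotype and clone cannot be told apart, and the p-values reflect how plates varied.

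Cyclins are regulatory subunits that switch on cyclin-dependent kinases (CDKs) and are made and destroyed in turn as a cell divides. D cyclins answer growth signals and, with CDK4 or CDK6, phosphorylate the retinoblastoma protein in G1, E cyclins start S phase with CDK2, cyclin A2 acts in S and G2 phase with CDK2 and CDK1, and B cyclins take the cell into mitosis with CDK1. After DNA damage p53 induces the CDK inhibitor p21, and the transcripts of late cyclins are then repressed through the DREAM complex, which binds CHR elements (cell cycle genes homology region) in promoters that often also hold CCAAT boxes for the factor NF-Y.

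Promoter sequence was matched from RefSeq (GRCh38.p14) for 5 of the 8 genes, CCNA2, CCNB1, CCNB2, CCND3 and CCNE1, and CCND1, CCND2 and CCNE2 are named only. The 250 bases before the RefSeq start are shown for CCNA2 (chr4:121823884-121824133, minus strand), CCNB1 (chr5:69166900-69167149, plus strand), CCNB2 (chr15:59104896-59105145, plus strand) and CCNE1 (chr19:29811741-29811990, plus strand), as A, B and E cyclins with 1 promoter each in the table. In all of these sequences capitals mark the same 3 kinds of letters. They are the CCAAT box with its reverse complement ATTGG, the SP1 box GGGCGG with its reverse complement CCGCCC, and CHR-like letters, which are TTTGAA in the plain form and either CTTGAA or, more loosely, TTTAAA in variant forms.
CCNA2: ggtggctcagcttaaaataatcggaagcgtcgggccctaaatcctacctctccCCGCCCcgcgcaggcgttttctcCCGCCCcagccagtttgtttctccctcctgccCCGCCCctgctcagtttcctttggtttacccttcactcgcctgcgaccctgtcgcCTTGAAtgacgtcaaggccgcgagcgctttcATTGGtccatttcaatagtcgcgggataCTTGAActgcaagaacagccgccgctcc
CCNB1: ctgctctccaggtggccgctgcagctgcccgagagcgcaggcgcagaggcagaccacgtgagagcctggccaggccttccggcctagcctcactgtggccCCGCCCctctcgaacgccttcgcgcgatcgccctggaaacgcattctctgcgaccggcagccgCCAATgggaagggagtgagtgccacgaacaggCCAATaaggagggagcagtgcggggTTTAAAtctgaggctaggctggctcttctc
CCNB2: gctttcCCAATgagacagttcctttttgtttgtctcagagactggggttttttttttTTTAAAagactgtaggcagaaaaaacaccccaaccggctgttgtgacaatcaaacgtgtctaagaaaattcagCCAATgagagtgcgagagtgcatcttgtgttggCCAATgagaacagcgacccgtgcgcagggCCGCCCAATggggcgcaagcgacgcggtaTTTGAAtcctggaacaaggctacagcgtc
CCNE1: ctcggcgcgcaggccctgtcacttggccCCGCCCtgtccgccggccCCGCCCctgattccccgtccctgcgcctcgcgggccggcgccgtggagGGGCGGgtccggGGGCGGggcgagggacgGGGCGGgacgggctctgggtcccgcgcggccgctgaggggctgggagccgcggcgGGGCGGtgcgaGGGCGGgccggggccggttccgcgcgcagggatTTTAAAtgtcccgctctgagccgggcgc

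Counted from the RefSeq start, CCNB2 held the CHR letters TTTGAA with the first base at -29, CCNA2 held CTTGAA at -28 and -87, CCNB1 held TTTAAA at -30, CCNE1 held TTTAAA at -28, and CCNB2 held TTTAAA as well, at -193. CCAAT lay at -54, -87, -120 and -244 in CCNB2, at -55 and -87 in CCNB1 and, on the other strand, at -56 in CCNA2, and CCNE1 held no CCAAT in this window. The SP1 box lay in 7 places in CCNE1 and, on the other strand, at -142, -174 and -197 in CCNA2, at -150 in CCNB1 and at -58 in CCNB2, where it overlapped the CCAAT box at -54. Exact letters were searched on both strands from 250 bases before to 50 after the start of 7 promoters, CCND3 having 3, and of all 35116 promoters in the table. The CHR letters, TTTGAA in 1 form and TTCGAA in the other, stood in 1 of the 7 and in 16.4% of all promoters. With CTTGAA added, and TTTAAA as well, a choice made after the sequences were seen, they stood in 4 of the 7 and in 32.2% of all. The CCAAT box stood in 5 of the 7 and in 34.6% of all, and the SP1 box in 6 of the 7 and in 45.0% of all. The CRE letters TGACGTCA were found in CCNA2, at -81, and in 1.85% of all promoters. The E2F letters TTTCGCGC, TTTGGCGC, TTTCCCGC or TTTGCCGC (3.31% of all) and the AP-1 letters, TGACTCA in 1 form and TGAGTCA in the other (4.95% of all), stood in 0 of the 7. A match of letters describes the sequence and does not show binding. The lack of an exact match does not show that a site is absent, since sites can be spelled with other letters. GENCODE release 29 places the first base of these 4 genes inside the windows shown, upstream of the RefSeq start.

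Recovered counts were 18.25 to 24.19 M per library, and 8.05 M in the shallowest, which was replicate 2 of HET with etoposide. CDKN1A, which encodes p21, averaged 34111 ± 2041 normalized counts in WT cells with etoposide, against 4651 ± 707 in WT cells with DMSO (SD, n = 4 each). Libraries 2, 3 and 4 of HOM with DMSO stood apart from all others. Their normalized counts summed to 32.02 to 47.28 M, against 16.17 to 24.68 M in the other 29 libraries, and the 13 genes of mitochondrial DNA took 20.7% to 21.9% of their counts, against 7.87% to 15.2% elsewhere. Results that rest on HOM with DMSO are therefore given with and without them. Without them that group is 1 library, replicate 1, whose array weight of 0.0752 was the second lowest of the 32. That weight reflects distance from a group mean that libraries 2 to 4 helped to set. Replicate 1 had a normalized sum of 22.94 M and 12.5% mitochondrial counts, inside the ranges of the 29 libraries. The standard errors and p-values of the version without libraries 2 to 4 assume that replicate 1 varied like the libraries of the other groups. Of 8 osteoblast or mesenchymal markers, COL1A1, SPARC and VIM were abundant in every group, with overall means of 42007, 29488 and 55682 normalized counts. COL5A1 averaged 4590, RUNX2 629 and ALPL 116.6. The collagen gene COL1A2, at 17.97, and the bone marker BGLAP, at 8.70, were low. KRT8 and KRT18, keratins of epithelial cells, were also high at overall means of 5802 and 8731, with EPCAM at 53.9 and KRT19 at 3.91. The 5 blood cell markers summed to 17.1 to 44.9 normalized counts in etoposide libraries and to 3.50 to 20.8 in DMSO libraries, and HBB was at 0 in 29 of the 32. The 4 fibroblast markers summed to 2902 to 3391 in HET with etoposide, against 1306 to 1393 in WT with etoposide. With DMSO they summed to 4422 to 5952 in HET, against 2386 to 2939 in WT. LUM carried this difference, at 2304 in HET against 214 in WT with etoposide and 2971 against 167 with DMSO. DCN was also higher in HET but low, at 13.7 against 9.90 with etoposide and 12.9 against 3.50 with DMSO. PDGFRA and PDGFRB were lower in HET, at 149 against 217 and 744 against 902 with etoposide. With DMSO they were at 579 against 703 and 1658 against 1854. The part of these markers in the cyclin results was not tested.

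**Figure D1:**
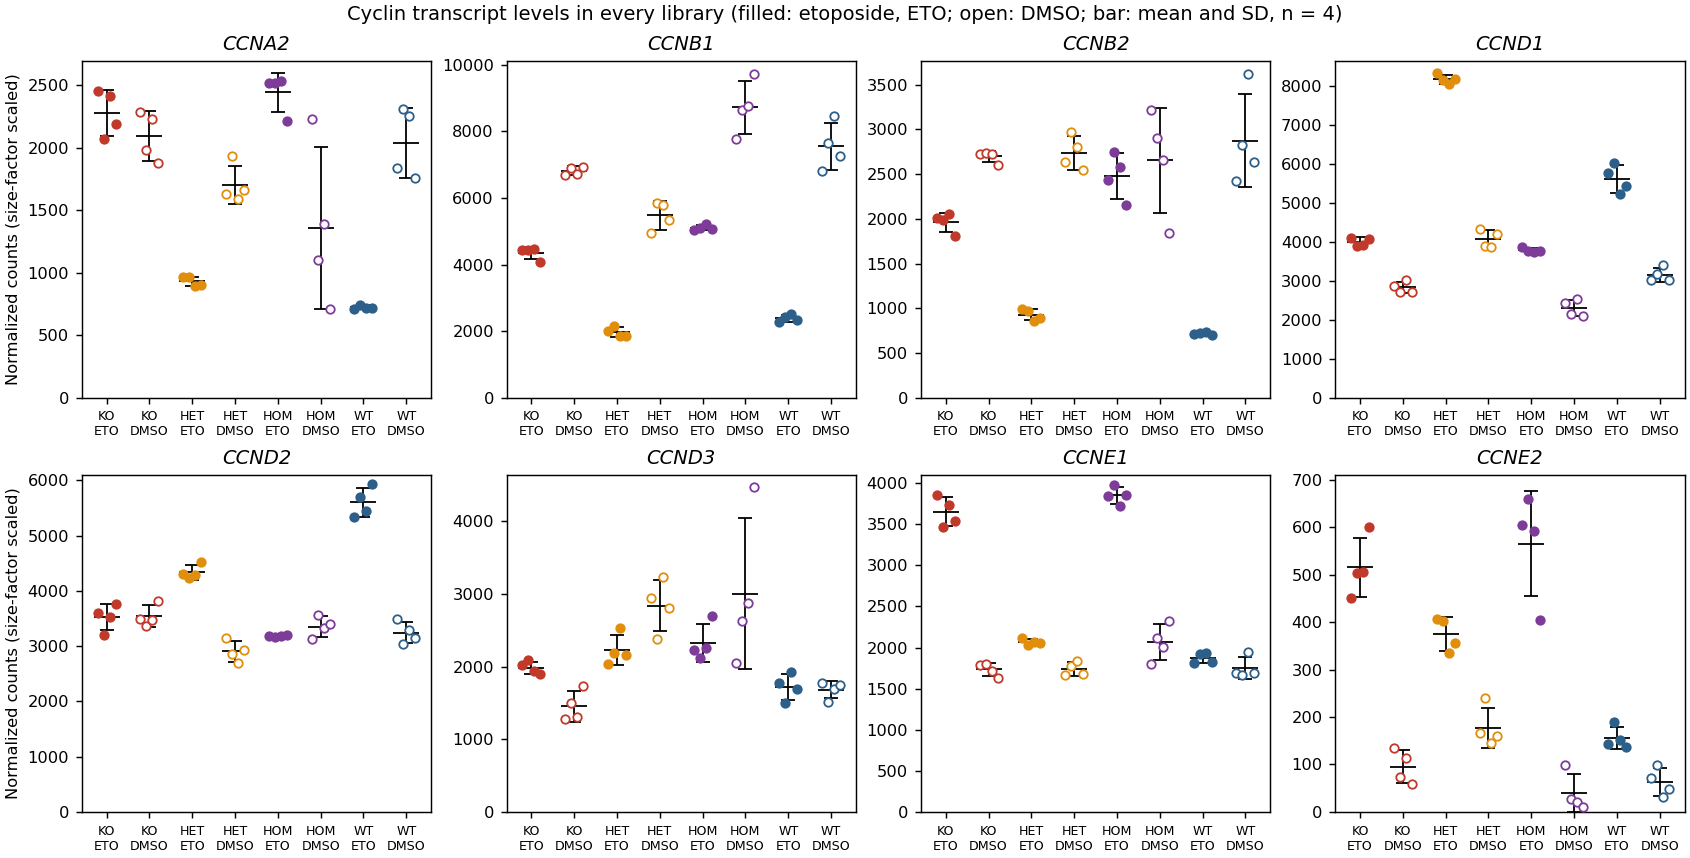
Normalized counts (vertical axis, size-factor scaled, linear from 0) of the 8 cyclins in each of the 32 libraries, with etoposide (filled) left of DMSO (open) for each genotype. Bars give the mean and SD of 4 libraries; CCNA2, CCNB1 and CCNB2 are lowest in HET and WT with etoposide, CCND1 is highest in HET with etoposide, and CCND2 is highest in WT with etoposide.

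In KO cells, which lack p53, etoposide raised both E cyclins and lowered CCNB1, and no D cyclin passed the test. To pass, a gene needed an adjusted p below 0.05 together with a change of 1.5-fold or more. Of the 8 cyclins 2 rose and 1 fell, while 18.1% of all genes tested rose and 14.5% fell. The median log2 fold change was 0.29 over the cyclins and 0.05 over all genes. In bulk RNA, fewer cells in a phase of the cycle and less RNA of the gene per cell cannot be told apart.

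CCND1 encodes cyclin D1, the D cyclin best known as a growth factor target and oncogene, on chromosome 11 (69641087 to 69654474, plus strand, GRCh38). It had 4109, 3892, 3932 and 4086 normalized counts in KO libraries with etoposide, against 2875, 2724, 3025 and 2705 in KO libraries with DMSO. The groups did not overlap, but the log2 fold change of 0.50 ± 0.07 (SE, adjusted p 8.91e-07) stayed under 1.5-fold. CCND2, which encodes cyclin D2, lies on chromosome 12 (4273772 to 4305350, plus strand). It had 3592, 3209, 3529 and 3769.6 normalized counts with etoposide, against 3497, 3364, 3482 and 3825 with DMSO. Its ranges lay on top of each other (-0.01 ± 0.07, adjusted p 0.935). CCND3, the gene of cyclin D3 on chromosome 6 (41934933 to 42050357, minus strand), had 2019, 2086, 1940.2 and 1896 with etoposide, against 1273, 1493, 1312 and 1735 with DMSO. It was higher in every treated library, again under 1.5-fold (0.46 ± 0.15, adjusted p 0.0128).

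CCNE1, the gene of cyclin E1 on chromosome 19 (29811898 to 29824308, plus strand), had 3859, 3473, 3729 and 3543 normalized counts in KO libraries with etoposide, against 1791, 1801, 1718 and 1630.3 with DMSO. Every treated library lay above every control, and CCNE1 rose 2.10-fold (1.07 ± 0.07, adjusted p 7.33e-13). CCNE2, which encodes cyclin E2, had 452, 504, 505 and 601 with etoposide, against 134, 73.9, 113 and 59 with DMSO. It rose 5.63-fold with no overlap (2.49 ± 0.39, adjusted p 5.9e-06).

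CCNA2, which encodes cyclin A2, lies on chromosome 4 (121816444 to 121823933, minus strand). It had 2455, 2068, 2415 and 2190.0 normalized counts in KO libraries with etoposide, against 2291, 1984, 2231 and 1875 with DMSO, ranges that overlapped (0.12 ± 0.18, adjusted p 0.598). The B cyclins CCNB1, on chromosome 5 (69167010 to 69178245, plus strand), and CCNB2, on chromosome 15 (59105078 to 59125045, plus strand), encode the mitotic partners of CDK1. CCNB1 had 4429, 4449, 4457 and 4092 with etoposide, against 6692, 6915, 6710.2 and 6943 with DMSO. It was lower in every treated library and fell 1.56-fold (-0.65 ± 0.08, adjusted p 6.49e-08). CCNB2 had 2005, 1986, 2049.8 and 1807 with etoposide, against 2721, 2735, 2728 and 2601 with DMSO. These did not overlap either, but the log2 fold change of -0.46 ± 0.12 (adjusted p 0.00278) stayed under 1.5-fold. EXOSC9 overlaps CCNA2, LTO1 overlaps CCND1, and INTS8 and NDUFAF6 overlap CCNE2, all on the opposite strand, and AC008012.1 overlaps CCND2 on the same strand. Their overall means were 671, 294, 416, 158 and 933 normalized counts, and since the strand used in counting is not given, reads of opposite-strand neighbours may not be told apart from those of the cyclins. For AC008012.1 and CCND2, whose overall mean was 3712, strand would not separate the reads in any case.

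HET cells, with 1 mutant and 1 wild-type allele, lowered the A and B cyclins and raised CCND1 and CCNE2. Of the 8 cyclins 2 rose and 3 fell, against 17.5% and 12.7% of all genes, with medians of -0.05 over the cyclins and 0.01 over all genes. CCND1 had 8325, 8142, 8041 and 8186 normalized counts in HET libraries with etoposide, against 4323, 3903, 3863 and 4214 with DMSO. The treated libraries held the highest CCND1 of all 32, and the gene rose 2.01-fold (1.01 ± 0.07, adjusted p 8.35e-13). CCND2 had 4302, 4228, 4282 and 4524 with etoposide, against 3150.0, 2849.8, 2687 and 2937 with DMSO. The groups did not overlap, but the log2 fold change of 0.58 ± 0.07 (adjusted p 4.8e-08) lay just under 1.5-fold, and it passed without replicate 2 of the treated libraries (0.59) or replicate 1 of the controls (0.62). CCND3 had 2035, 2189.8, 2529 and 2158 with etoposide, against 2944, 2379, 3227 and 2801 with DMSO (-0.34 ± 0.15, adjusted p 0.062, with overlap).

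For the E cyclins of HET cells, CCNE1 had 2122, 2032, 2071 and 2059 normalized counts with etoposide, against 1667, 1780.2, 1832 and 1676 with DMSO. Every treated library was higher, by less than 1.5-fold (0.25 ± 0.07, adjusted p 0.00477). CCNE2 had 407, 402, 335 and 355 with etoposide, against 166, 239, 146 and 159 with DMSO. It rose 2.14-fold without overlap (1.09 ± 0.39, adjusted p 0.0229), and lost the call without replicate 1 of the treated libraries (1.05, adjusted p 0.0507), replicate 3 of the controls (1.01, 0.0612) or replicate 4 of the controls (1.05, 0.0508). The SE is pooled over all 8 groups, and without libraries 2 to 4 of HOM with DMSO the value was 1.09 ± 0.25.

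The later cyclins of HET cells fell. CCNA2 had 965, 964, 895 and 900.5 normalized counts in HET libraries with etoposide, against 1628, 1932, 1591 and 1660.2 with DMSO, and was 1.82-fold lower (-0.87 ± 0.18, adjusted p 0.000268). CCNB1 had 2008, 2161, 1869.7 and 1862 with etoposide, against 4942, 5847, 5802 and 5326 with DMSO, and was 2.77-fold lower (-1.47 ± 0.08, adjusted p 1.8e-15). CCNB2 had 991, 974, 861 and 888 with etoposide, against 2631, 2966, 2804 and 2546 with DMSO, and was 2.95-fold lower (-1.56 ± 0.12, adjusted p 1.33e-11). In none of the 3 did a treated library reach a control.

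In HOM cells, which carry A347D on both alleles, the response was measured against a control group of which 3 libraries stood apart. With all libraries 4 of the 8 cyclins rose and 1 fell, against 37.2% and 28.5% of all genes, and without libraries 2 to 4 there were 3 that rose and 1 that fell, against 20.9% and 17.3% of all genes. The median was 0.32 over the cyclins and 0.16 over all genes. CCNE1 had 3848, 3979.9, 3727 and 3851 normalized counts in HOM libraries with etoposide, against 1799.9, 2112, 2009.8 and 2328 with DMSO. It rose in both versions, by 0.91 ± 0.07 with all libraries (adjusted p 1.05e-11) and by 1.10 ± 0.09 without the 3 (adjusted p 2e-10). CCNE2 had 604, 659, 593 and 405 with etoposide, against 98.5, 26.9, 21 and 10.6 with DMSO. The 3 lowest controls are the libraries that stood apart, and the log2 rise was 4.26 ± 0.39 with them (adjusted p 1.86e-10) and 2.48 ± 0.40 without them (adjusted p 1.21e-05).

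Among the D cyclins of HOM cells, CCND1 had 3869, 3769, 3732 and 3762 normalized counts with etoposide, against 2427, 2149, 2537 and 2100.3 with DMSO. It rose by 0.72 ± 0.07 (adjusted p 4.94e-10) and, without the 3 libraries, by 0.64 ± 0.09 (adjusted p 2.07e-06). CCND2 had 3182, 3175, 3178 and 3211 with etoposide, against 3124, 3568, 3333 and 3400.1 with DMSO (-0.07 ± 0.07, adjusted p 0.328, and 0.03 ± 0.10, 0.826, without the 3 libraries). CCND3 had 2224, 2123, 2253 and 2699.8 with etoposide, against 2047, 2627, 2870.2 and 4473 with DMSO (-0.32 ± 0.15, adjusted p 0.055, and 0.18 ± 0.16, 0.375, without the 3 libraries). Neither passed, both signs turned without the 3 libraries, both genes overlapped between treatments, and CCND3 in library 4 of the controls was the highest of all 32.

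CCNA2 had 2518, 2516, 2534 and 2214 normalized counts in HOM libraries with etoposide, against 2234, 1101, 1388 and 709 with DMSO. Only replicate 1 of the controls reached the treated range, and the log2 fold change was 0.97 ± 0.18 with all libraries (adjusted p 2.54e-05) and 0.13 ± 0.14 without the 3 (adjusted p 0.454). CCNB1 had 5027, 5104, 5207 and 5068 with etoposide, against 7758, 8647, 8747 and 9716 with DMSO. It fell by 0.77 ± 0.08 (adjusted p 9.72e-10) and without the 3 libraries by 0.60 ± 0.10 (adjusted p 3.53e-05), whereas total-count scaling (0.24) and quantile normalization (0.29) turned the sign. CCNB2 had 2433, 2746, 2581 and 2150.5 with etoposide, against 3219, 2899, 2656 and 1846 with DMSO, with overlap (-0.08 ± 0.12, adjusted p 0.575; without the 3 libraries -0.38 ± 0.14, 0.0264).

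In WT cells etoposide lowered the A and B cyclins and raised CCND1, CCND2 and CCNE2, while CCND3 and CCNE1 did not pass the test. Of the 8 cyclins 3 rose and 3 fell, while 20.1% of all genes rose and 14.9% fell, with medians of 0.06 over the cyclins and 0.05 over all genes. CCND1 had 5755, 6028, 5233 and 5430.1 normalized counts in WT libraries with etoposide, against 3032, 3176, 3409 and 3013 in WT libraries with DMSO. The groups did not overlap, and CCND1 rose 1.78-fold (0.83 ± 0.07, adjusted p 4.74e-11). CCND2 had 5346, 5697, 5450.2 and 5933 with etoposide, against 3484, 3032, 3300.2 and 3157 with DMSO. Again all 4 treated libraries lay above all 4 controls, and CCND2 rose 1.73-fold (0.79 ± 0.07, adjusted p 9.7e-11). CCND3 had 1770.4, 1499, 1926 and 1697 with etoposide, against 1780.4, 1518, 1694 and 1743 with DMSO. These ranges overlapped, and its log2 fold change was 0.03 ± 0.15 (adjusted p 0.885).

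Of the E cyclins of WT cells, CCNE1 had 1814, 1917, 1930.0 and 1824 normalized counts with etoposide, against 1688, 1669.7, 1949 and 1696 with DMSO. The ranges overlapped and its log2 fold change was 0.10 ± 0.07 (adjusted p 0.265). CCNE2 had 144, 189, 151 and 137 with etoposide, against 72.4, 98.2, 31.9 and 49 with DMSO. All 4 treated libraries lay above the controls and CCNE2 rose 2.63-fold (1.40 ± 0.39, adjusted p 0.00389).

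Cyclin A2 and the B cyclins fell in WT cells. CCNA2 had 714, 747, 719 and 721 normalized counts with etoposide, against 1839, 2310.3, 2255 and 1757 with DMSO. No library overlapped, and CCNA2 was 2.79-fold lower (-1.48 ± 0.18, adjusted p 8.87e-08). CCNB1 had 2290.2, 2421, 2510.0 and 2329 with etoposide, against 6804, 7648, 8462 and 7270.3 with DMSO. CCNB2 had 716, 722, 739 and 702 with etoposide, against 2426, 2826, 3616 and 2629 with DMSO. Both stood far below every control library, CCNB1 3.15-fold lower (-1.66 ± 0.08, adjusted p 1.11e-16) and CCNB2 3.95-fold lower (-1.98 ± 0.12, adjusted p 7.17e-14).

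**Figure D2:**
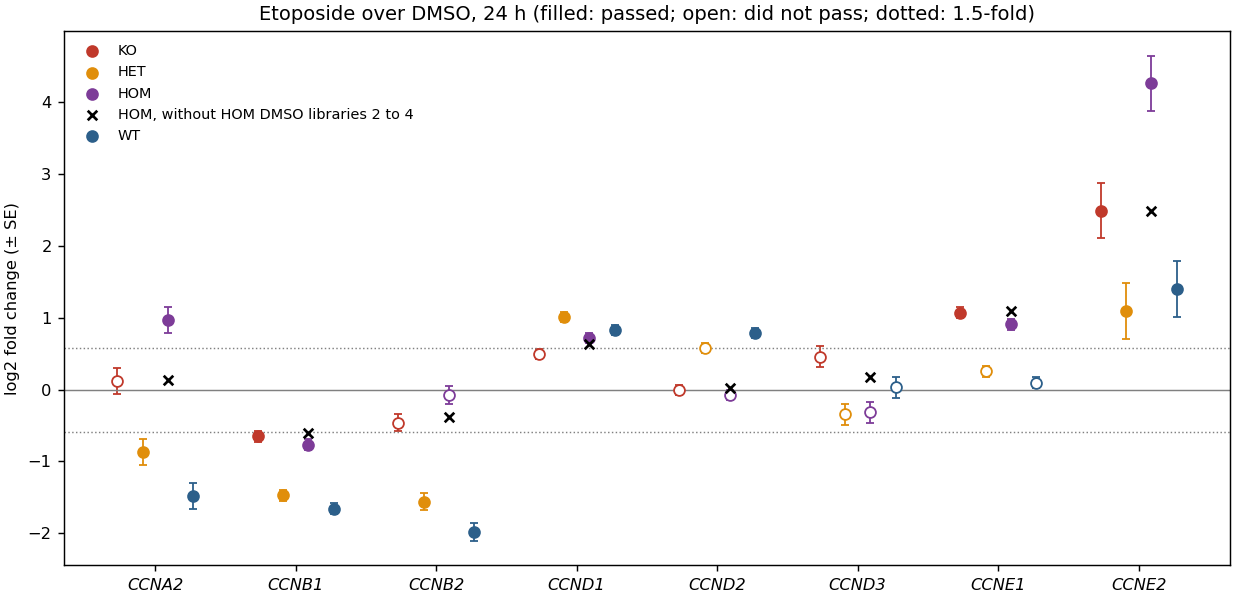
Log2 fold change of etoposide over DMSO (vertical axis, points with SE bars) for the 8 cyclins in KO, HET, HOM and WT cells, 4 libraries per group. Filled points passed the test and dotted lines mark 1.5-fold; crosses give HOM without libraries 2 to 4 of its DMSO group, where CCNA2 moves to 0.13 and CCNE2 to 2.48.

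The responses of KO and WT cells were then compared in the same fit, as a difference of differences. The response of KO minus that of WT was higher for 4 of the 8 cyclins and lower for 1, against 7.11% and 8.13% of all genes. It was 1.61 ± 0.26 for CCNA2 (adjusted p 2.97e-05), 1.52 ± 0.17 for CCNB2 (1.26e-07), 1.01 ± 0.11 for CCNB1 (4.51e-08) and 0.97 ± 0.10 for CCNE1 (2.74e-08). For the first 3 a positive value means a smaller fall in KO cells than in WT cells, or none, and for CCNE1 a rise in KO cells that WT cells lacked. CCND2 was lower by this measure (-0.80 ± 0.10, adjusted p 3.81e-07). CCND1 (-0.33 ± 0.10, adjusted p 0.0167), CCND3 (0.43 ± 0.21, 0.175) and CCNE2 (1.10 ± 0.55, 0.185) did not pass. Without libraries 2 to 4 of HOM with DMSO, which widen the shared estimate of spread, CCNE2 passed as well (1.10 ± 0.35, adjusted p 0.0195), with 9.46% of all genes higher and 10.9% lower.

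The response of HET minus that of WT passed for 0 of the 8 cyclins in limma's test, against 2.97% of all genes higher and 1.78% lower. At an unadjusted p under 0.05 there were 3, and voom on the recovered counts called 0. The differences largest in size were 0.61 ± 0.26 for CCNA2 (adjusted p 0.208) and 0.42 ± 0.17 for CCNB2 (adjusted p 0.189), both toward a smaller fall in HET cells. CCNA2 passed without libraries 2 to 4 of HOM with DMSO (0.61 ± 0.12, adjusted p 0.000891), which leaves the value as it was and narrows the shared spread, with 4.78% of all genes higher and 3.29% lower. It also passed without replicate 1 (adjusted p 0.0297) or replicate 4 (0.0357) of that group alone. The remaining 6 differences ran from -0.38 ± 0.21 for CCND3 to 0.19 ± 0.11 for CCNB1.

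The response of HOM minus that of WT was higher for 5 cyclins and lower for 1, against 26.2% and 23.9% of all genes, and without the 3 libraries higher for 4 and lower for 1, against 8.97% and 9.48%. With and without them it was 1.90 ± 0.17 and 1.60 ± 0.17 for CCNB2, 0.89 ± 0.11 and 1.05 ± 0.12 for CCNB1, 0.81 ± 0.10 and 0.998 ± 0.11 for CCNE1, and -0.86 ± 0.10 and -0.76 ± 0.11 for CCND2. For CCNA2 it was 2.45 ± 0.26 (adjusted p 1.87e-08) and, without them, 1.61 ± 0.16 (adjusted p 3.27e-08). CCNE2 passed only with them (2.87 ± 0.55, adjusted p 0.000118, against 1.09 ± 0.47, adjusted p 0.1, without). Neither version passed for CCND1 (-0.11 ± 0.10 with and -0.19 ± 0.11 without them) or for CCND3, whose sign turned (-0.35 ± 0.21 with and 0.15 ± 0.19 without them). The comparison of HOM and KO responses rested on these libraries throughout. It was higher for 2 cyclins and lower for 1 with all libraries, against 24.4% and 19.3% of all genes, namely CCNE2 (1.77 ± 0.55), CCNA2 (0.84 ± 0.26) and CCND3 (-0.78 ± 0.21). Without the 3 libraries it passed for 0 cyclins, when 1.07% of all genes were higher and 0.779% lower, and those 3 values became -0.01 ± 0.47, 0.00 ± 0.16 and -0.28 ± 0.19. The comparisons of KO, HET and HOM responses with that of WT all share the WT libraries.

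Genotypes were also compared within etoposide, where no library of HOM with DMSO enters the means. In KO cells with etoposide 5 cyclins were higher than in WT cells with etoposide and 1 was lower, against 11.7% and 15% of all genes. The log2 difference was 1.73 ± 0.39 for CCNE2 (adjusted p 0.000632), 1.65 ± 0.18 for CCNA2 (1.57e-08), 1.45 ± 0.12 for CCNB2 (7.8e-11), 0.96 ± 0.07 for CCNE1 (5.74e-12) and 0.87 ± 0.08 for CCNB1 (1.94e-10). CCND2 was lower (-0.67 ± 0.07, adjusted p 3.33e-09), CCND1 was lower by less than 1.5-fold (-0.48 ± 0.07, 1.39e-06), and CCND3 did not pass (0.21 ± 0.15, 0.288). The 4 KO libraries and the 4 WT libraries with etoposide did not overlap for any cyclin other than CCND3. Overlap was not counted over all genes, here or in the comparisons that follow, so it describes the cyclins only. In the authors' deposited table of this comparison the log2 fold changes were 1.73 for CCNE2, 1.65 for CCNA2, 1.45 for CCNB2, 0.96 for CCNE1, 0.87 for CCNB1 and -0.67 for CCND2.

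In HOM cells with etoposide 5 cyclins were higher than in WT cells with etoposide and 1 was lower, against 14% and 14.7% of all genes. The difference from WT was 1.85 ± 0.39 for CCNE2 (adjusted p 0.000282), 1.78 ± 0.12 for CCNB2 (9.52e-13), 1.75 ± 0.18 for CCNA2 (4.71e-09), 1.10 ± 0.08 for CCNB1 (1.42e-12) and 1.04 ± 0.07 for CCNE1 (1.03e-12). CCND2 was lower (-0.81 ± 0.07, adjusted p 6.2e-11). CCND1 was lower by a little under 1.5-fold (-0.57 ± 0.07, adjusted p 8.85e-08) and passed without replicate 3 of WT (-0.60). CCND3 was higher by less than 1.5-fold (0.43 ± 0.15, adjusted p 0.0209). The HOM and WT ranges did not overlap for any of the 8, and overlap was not counted over all genes. Set against KO directly, HOM with etoposide passed for 0 cyclins in limma's test, against 7.47% of all genes higher and 4.67% lower, with 3 at an unadjusted p under 0.05 and 0 called by voom. The differences ran from -0.14 for CCND2 to 0.33 ± 0.12 for CCNB2 (adjusted p 0.0509), and CCNB1 was at 0.23 ± 0.08 (adjusted p 0.0316). The HOM and KO ranges did not overlap for CCNB1, CCNB2, CCND1 and CCND3. In the authors' deposited table of this comparison CCNB2 was at 0.34 with an adjusted p of 0.028 and CCNB1 at 0.23 with 0.00622. A value that misses the threshold does not show that the genotypes are alike, and for CCNE2 the standard error of 0.39 leaves a wide range around 0.12.

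HET cells with etoposide differed from WT cells with etoposide in 1 cyclin by the test, CCNE2, against 10.1% of all genes higher and 13.2% lower. CCNE2 was 2.42-fold higher (1.28 ± 0.39, adjusted p 0.0112). The ranges of HET and WT libraries did not overlap for any of the 8 cyclins, and overlap was not counted over all genes. CCND1 was higher by 0.54 ± 0.07 (adjusted p 4.05e-07), CCND2 lower by less than 1.5-fold (-0.37 ± 0.07, 9.61e-05) and CCNB1 likewise (-0.28 ± 0.08, 0.00582), while CCNB2 was at 0.37 ± 0.12 (0.0197) and CCNA2 at 0.36 ± 0.18 (0.123). Group means of HET and WT with etoposide were 931 ± 38.6 against 725 ± 14.7 normalized counts for CCNA2, 1975 ± 141 against 2388 ± 98.5 for CCNB1 and 929 ± 63.9 against 719 ± 15.3 for CCNB2 (SD, n = 4 each).

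**Figure D3:**
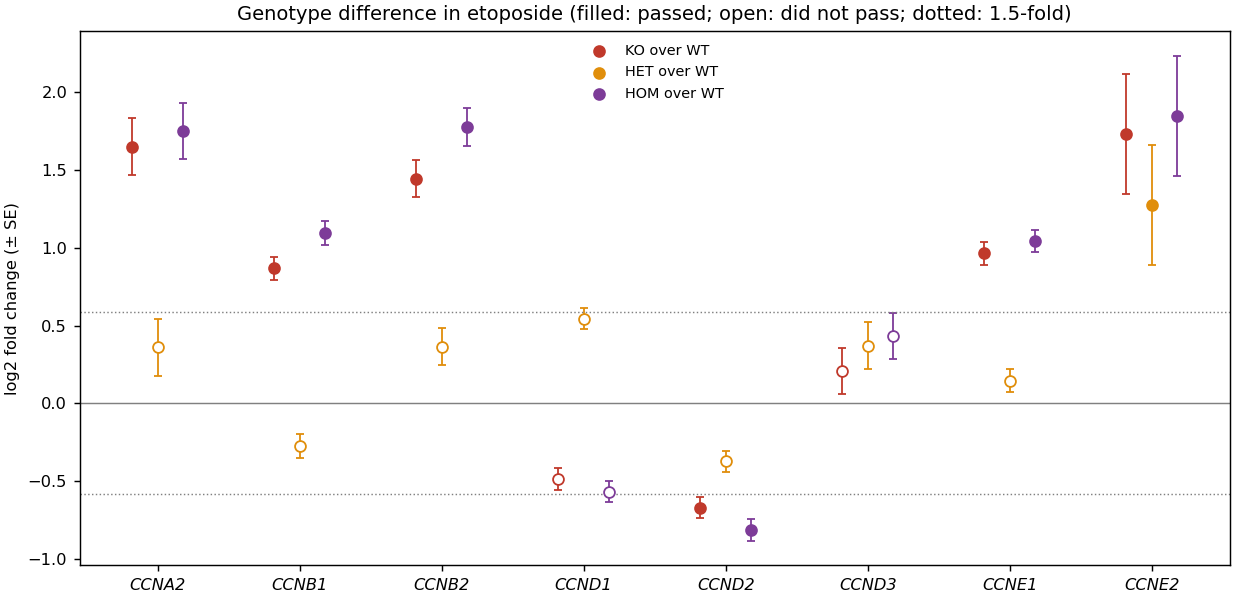
Log2 fold change of KO, HET and HOM over WT within etoposide (vertical axis, points with SE bars) for the 8 cyclins, 4 libraries per group. Filled points passed the test and dotted lines mark 1.5-fold; KO and HOM passed for the same 6 cyclins, and HET passed for CCNE2.

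In DMSO, KO minus WT passed for 0 of the 8 in limma's test, against 2.75% of all genes higher and 5.59% lower, with 1 cyclin at an unadjusted p under 0.05, 0 called by voom and 1 with array weights. The values ran from -0.22 ± 0.15 for CCND3 to 0.63 ± 0.39 for CCNE2 (adjusted p 0.365), and the ranges of the 2 groups overlapped for every cyclin. HET cells with DMSO had 2 cyclins higher than WT cells with DMSO and 0 lower, against 16.1% and 16.4% of all genes. CCND3 was 1.68-fold higher (0.75 ± 0.15, adjusted p 0.000191) and CCNE2 2.98-fold higher (1.58 ± 0.39, adjusted p 0.00163), each without overlap. CCND1 was higher by 0.37 ± 0.07 (adjusted p 8.88e-05) and CCNB1 was lower by less than 1.5-fold (-0.46 ± 0.08, adjusted p 1.76e-05).

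HOM cells with DMSO showed 1 cyclin higher and 2 lower than WT cells with all libraries, against 20% and 27.6% of all genes. CCND3 was at 0.78 ± 0.15 (adjusted p 0.000103), CCNA2 at -0.70 ± 0.18 (0.00167) and CCNE2 at -1.02 ± 0.39 (0.0234). In the authors' deposited table CCND3 was at 0.83 (adjusted p 7.5e-07), CCNA2 at -0.58 (0.00436) and CCNE2 at -0.61 (0.175). CCNE2 lost the call without replicate 1 (adjusted p 0.0624) or 2 (0.107) of WT with DMSO. It also lost it without replicate 3 (0.0686) or 4 (0.177) of HOM with DMSO. CCNA2 and CCND3 lost theirs without replicate 4 of HOM with DMSO. Against KO cells the same 3 genes passed, CCND3 at 1.0 ± 0.15, CCNA2 at -0.74 ± 0.18 and CCNE2 at -1.65 ± 0.39, while 22.6% of all genes were higher and 28.6% lower. Without libraries 2 to 4 of HOM with DMSO 0 cyclins passed against either genotype. Of all genes 1.03% were then higher and 3.51% lower against WT, and 4.37% higher and 4.29% lower against KO. CCNA2 then stood at 0.14 against WT and 0.10 against KO, and CCNE2 at 0.76 and 0.13, so that both signs turned, and CCND3 stood at 0.28 and 0.51. Replicate 4 had the lowest CCNA2 and CCNE2 and the highest CCND3 of the group.

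The order of group means differed between the cyclins. CCNA2 was highest in HOM with etoposide (2446 ± 154 normalized counts), and each group overlapped the next down to HET with etoposide (931 ± 38.6). WT with etoposide (725 ± 14.7) had the lowest mean and did not overlap HET with etoposide. HOM with DMSO overlapped HET with etoposide (895 to 965) only through library 4, at 709. That library also lay below every library of WT with etoposide (714 to 747). Without libraries 2 to 4, HOM with DMSO stood at 2234. HET with etoposide then lay below every DMSO group, whose lowest library was at 1591, in HET. For CCNB1 the 4 DMSO groups came first, the highest being HOM with DMSO at 8717 ± 801, followed by HOM, KO, WT and HET with etoposide, of which no neighbours overlapped. The treated groups of CCNB2 came in the order HOM at 2478 ± 253, KO at 1962 ± 106, HET at 929 ± 63.9 and WT at 719 ± 15.3. For CCND1 with etoposide the order was HET at 8174 ± 118, WT at 5611 ± 351, KO at 4005 ± 109 and HOM at 3783 ± 59.7. For CCND2, WT with etoposide (5607 ± 263) and HET with etoposide (4334 ± 130) led, and the other 6 groups lay between 2906 and 3542. All neighbouring groups overlapped for CCND3. CCNE1 was near 1735 to 2071 in 6 groups and at 3852 ± 103 and 3651 ± 176 in HOM and KO with etoposide.

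Levels of different cyclins were compared per kilobase of the longest coding transcript in GENCODE release 29. In WT cells with etoposide CCND1 was the most abundant at 1303 ± 81.5 normalized counts per kilobase, followed by CCNB1 at 1101 ± 45.4, CCNE1 at 916 ± 29.7, CCND2 at 865 ± 40.5, CCND3 at 720 ± 74.0, CCNB2 at 287 ± 6.11, CCNA2 at 259 ± 5.26 and CCNE2 at 46.5 ± 6.96. In WT cells with DMSO CCNB1 led at 3479 ± 323, followed by CCNB2 at 1148 ± 208, CCNE1 at 857 ± 65.1, CCND1 at 733 ± 42.5, CCNA2 at 729 ± 101, CCND3 at 703 ± 48.4, CCND2 at 501 ± 29.9 and CCNE2 at 18.9 ± 8.66. The order depended on the length chosen. With the median length of the coding transcripts, in WT cells with etoposide CCND1 stood at 2309 and CCNE1 at 1114, above CCNB1 at 1101, and in WT cells with DMSO CCND1 at 1299 stood above CCNE1 at 1042 and CCND3 at 815 above CCNA2 at 729.

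The genes around the cyclins were counted in lists, whose medians are given beside the counts. Over all genes the median was 0.05 in KO, 0.01 in HET and 0.05 in WT cells, where 18.1%, 17.5% and 20.1% of all genes rose and 14.5%, 12.7% and 14.9% fell, in that order. Small counts such as 1 of 7 are near these shares. Up to 2 genes were named per list, direction and genotype, and each is given in all of KO, HET and WT cells. Among the CDK inhibitors 1 of 7 rose and 0 fell in KO cells (median -0.16), 1 rose and 4 fell in HET cells (-0.86), and 2 rose and 5 fell in WT cells (-0.81). CDKN1A rose by 1.54 ± 0.14 in KO, 3.53 ± 0.14 in HET and 2.89 ± 0.14 in WT cells. CDKN2B, which encodes the CDK4 inhibitor p15, rose by 1.03 ± 0.39 in WT cells and stood at 0.07 ± 0.39 in KO and 0.02 ± 0.39 in HET cells. Its levels differed widely between genotypes. With DMSO and with etoposide it averaged 12.0 and 25.3 normalized counts in WT and 746 and 758 in HET cells. In KO cells it was near 0 (0.48 and 0.63), so its value there is one at the floor. CDKN2C, the gene of the CDK4 and CDK6 inhibitor p18, was at -0.19 ± 0.08 in KO, -1.46 ± 0.08 in HET and -1.90 ± 0.08 in WT cells. The p57 gene CDKN1C was at -0.34 ± 0.13 in KO, -1.49 ± 0.13 in HET and -0.96 ± 0.13 in WT cells, and CDKN3, a phosphatase that acts on CDKs, at -0.32 ± 0.19, -1.40 ± 0.19 and -1.79 ± 0.19. These 3 passed in HET and WT cells and not in KO cells.

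Of the 8 CDK subunits and activators, 3 rose and 1 fell in KO cells (median 0.09), 0 rose and 2 fell in HET cells (-0.33), and 0 rose and 2 fell in WT cells (-0.38). CDK1, the partner of B cyclins, rose by 1.06 ± 0.33 in KO cells and stood at -0.18 ± 0.33 in HET and -0.34 ± 0.33 in WT cells. CDK7, of the CDK-activating kinase, rose by 2.43 ± 0.67 in KO cells and stood at 0.60 ± 0.67 in HET and 1.01 ± 0.67 in WT cells. CDK6 was at -1.68 ± 0.23 in KO, -0.48 ± 0.23 in HET and 0.02 ± 0.23 in WT cells and passed in KO cells. CKS1B, a small CDK subunit, was at 0.30 ± 0.10 in KO, -0.77 ± 0.10 in HET and -1.08 ± 0.10 in WT cells, and CDK4 at -0.28 ± 0.12, -0.87 ± 0.12 and -0.84 ± 0.12. Both passed in HET and WT cells. Among the 8 phosphatases, kinases and kinase activators that switch cyclin B-CDK1 on or off, 1 rose and 3 fell in KO cells (median -0.58), 5 fell in HET cells (-1.13) and 6 fell in WT cells (-1.66). The mitotic kinase PLK1 was at -1.93 ± 0.19 in KO, -2.56 ± 0.19 in HET and -3.28 ± 0.19 in WT cells. BORA, an activator of the mitotic kinase AURKA, was at -0.60 ± 0.37 in KO, -1.60 ± 0.37 in HET and -1.75 ± 0.37 in WT cells, and passed in HET and WT cells. AURKA itself passed in all of these genotypes, at -0.82 ± 0.10 in KO, -1.18 ± 0.10 in HET and -1.93 ± 0.10 in WT cells. CDC25A, a phosphatase that activates CDKs, rose by 0.88 ± 0.09 in KO cells and stood at 0.19 ± 0.09 in HET and -0.07 ± 0.09 in WT cells. CDC25B of the same family fell in each, at -1.10 ± 0.20 in KO, -1.12 ± 0.20 in HET and -1.56 ± 0.20 in WT cells.

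Of 16 genes of cyclin destruction, 0 rose and 3 fell in KO cells (median -0.16), 1 rose and 6 fell in HET cells (-0.37), and 1 rose and 5 fell in WT cells (-0.46). CDC20, which activates the ligase that destroys B cyclins, was at -1.56 ± 0.16 in KO, -2.11 ± 0.16 in HET and -2.67 ± 0.16 in WT cells. UBE2S and UBE2C, conjugating enzymes of the same ligase, passed in HET and WT cells. UBE2S was at -0.36 ± 0.17 in KO, -1.03 ± 0.17 in HET and -1.04 ± 0.17 in WT cells, and UBE2C at -0.05 ± 0.11, -0.85 ± 0.11 and -1.36 ± 0.11. FBXW7, whose ubiquitin ligase targets cyclin E, rose by 1.21 ± 0.17 in HET and 1.63 ± 0.17 in WT cells and stood at 0.45 ± 0.17, under 1.5-fold, in KO cells. AMBRA1, which directs the destruction of D cyclins, fell in each, at -1.30 ± 0.17 in KO, -0.70 ± 0.17 in HET and -0.68 ± 0.17 in WT cells.

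Of 16 genes of the DREAM and MYB-MuvB complexes and NF-Y, 3 rose and 1 fell in KO cells (median -0.19), 0 rose and 6 fell in HET cells (-0.47), and 0 rose and 6 fell in WT cells (-0.49). NFYB rose by 0.67 ± 0.25 in KO cells and stood at -0.29 ± 0.25 in HET and -0.43 ± 0.25 in WT cells, and LIN9, a MuvB subunit, rose by 0.66 ± 0.25 in KO cells and stood at -0.30 ± 0.25 in HET and -0.13 ± 0.25 in WT cells. NFYC fell in each, at -0.65 ± 0.10 in KO, -0.78 ± 0.10 in HET and -0.67 ± 0.10 in WT cells. The activator MYBL2 was at -0.36 ± 0.21 in KO, -1.25 ± 0.21 in HET and -2.34 ± 0.21 in WT cells. RBL1, a pocket protein of the complex, was at -0.33 ± 0.27 in KO, -0.98 ± 0.27 in HET and -1.26 ± 0.27 in WT cells, and FOXM1, a factor that works with MuvB, at -0.27 ± 0.16, -0.75 ± 0.16 and -1.48 ± 0.16. MYBL2, RBL1 and FOXM1 passed in HET and WT cells and not in KO cells.

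Of 7 RB and E2F genes, 2 rose and 0 fell in KO cells (median 0.15), 0 passed in HET cells (0.08), and 2 rose and 2 fell in WT cells (0.32). E2F8 rose by 0.86 ± 0.16 in KO cells and stood at 0.02 ± 0.16 in HET and -0.37 ± 0.16 in WT cells. The repressor E2F6 rose by 0.84 ± 0.17 in KO and 0.65 ± 0.17 in WT cells, with 0.43 ± 0.17 in HET cells, and the repressor E2F7 rose by 0.63 ± 0.12 in WT cells, with 0.44 ± 0.12 in KO and 0.23 ± 0.12 in HET cells. The activator E2F1 was at -0.04 ± 0.17 in KO, -0.49 ± 0.17 in HET and -1.19 ± 0.17 in WT cells, and E2F2 at 0.03 ± 0.12, 0.08 ± 0.12 and -0.60 ± 0.12, and both passed in WT cells. Of 15 factors known to bind D cyclin promoters, 6 rose and 1 fell in KO cells (median 0.18), 7 rose and 1 fell in HET cells (0.42), and 5 rose and 2 fell in WT cells (0.29). FOS, MYC and KLF5 rose in each of these genotypes. The immediate-early gene FOS rose by 1.52 ± 0.10 in KO, 0.80 ± 0.10 in HET and 1.17 ± 0.10 in WT cells, MYC by 0.90 ± 0.12, 1.10 ± 0.12 and 1.18 ± 0.12, and KLF5 by 1.25 ± 0.22, 1.44 ± 0.22 and 1.19 ± 0.22. KLF4 rose by 1.89 ± 0.56 in KO cells and stood at 0.42 ± 0.56 in HET and 1.17 ± 0.56 in WT cells. TCF7L2, a partner of beta-catenin, fell in each, at -1.93 ± 0.14 in KO, -1.17 ± 0.14 in HET and -0.999 ± 0.14 in WT cells. SP1 was at -0.48 ± 0.08 in KO, -0.56 ± 0.08 in HET and -0.63 ± 0.08 in WT cells, and passed 1.5-fold in WT cells.

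Among 8 other cyclins tested, 1 rose and 2 fell in each of KO, HET and WT cells, with medians of -0.12, -0.13 and 0.27. CCNF, a cyclin that is part of a ubiquitin ligase, was at -0.99 ± 0.13 in KO, -1.16 ± 0.13 in HET and -1.66 ± 0.13 in WT cells, and CCNY at -1.13 ± 0.07, -0.93 ± 0.07 and -0.87 ± 0.07. CCNJ rose by 1.20 ± 0.31 in KO, 0.81 ± 0.31 in HET and 0.96 ± 0.31 in WT cells. Of the 7 cyclins of transcription and splicing kinases 3 rose in KO, 0 in HET and 3 in WT cells, and 0 fell, with medians of 0.55, 0.42 and 0.58. CCNT1 and CCNT2, which serve the elongation kinase CDK9, rose by 0.90 ± 0.30 and 0.76 ± 0.30 in KO cells and by 0.93 ± 0.30 and 0.98 ± 0.30 in WT cells, and stood at 0.59 ± 0.30 and 0.42 ± 0.30 in HET cells.

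The response of KO minus that of WT was higher for 5 and lower for 0 of the 8 CDK1 switch genes (median 1.07), for 5 and 0 of the 16 DREAM, MYB-MuvB and NF-Y genes (0.52), for 4 and 1 of the 7 inhibitors (0.61) and for 3 and 1 of the 8 CDK subunits (0.86). It was higher for 3 and lower for 1 of 16 destruction genes (0.17), for 3 and 0 of 7 RB and E2F genes (0.18), for 0 and 2 of 15 D cyclin promoter factors (-0.16), for 1 and 0 of 8 other cyclins (-0.20) and for 0 and 1 of 7 transcription cyclins (-0.11). The median over the 8 cyclins was 0.99 and that over all genes -0.04, and 7.11% of all genes were higher and 8.13% lower.

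**Figure D4:**
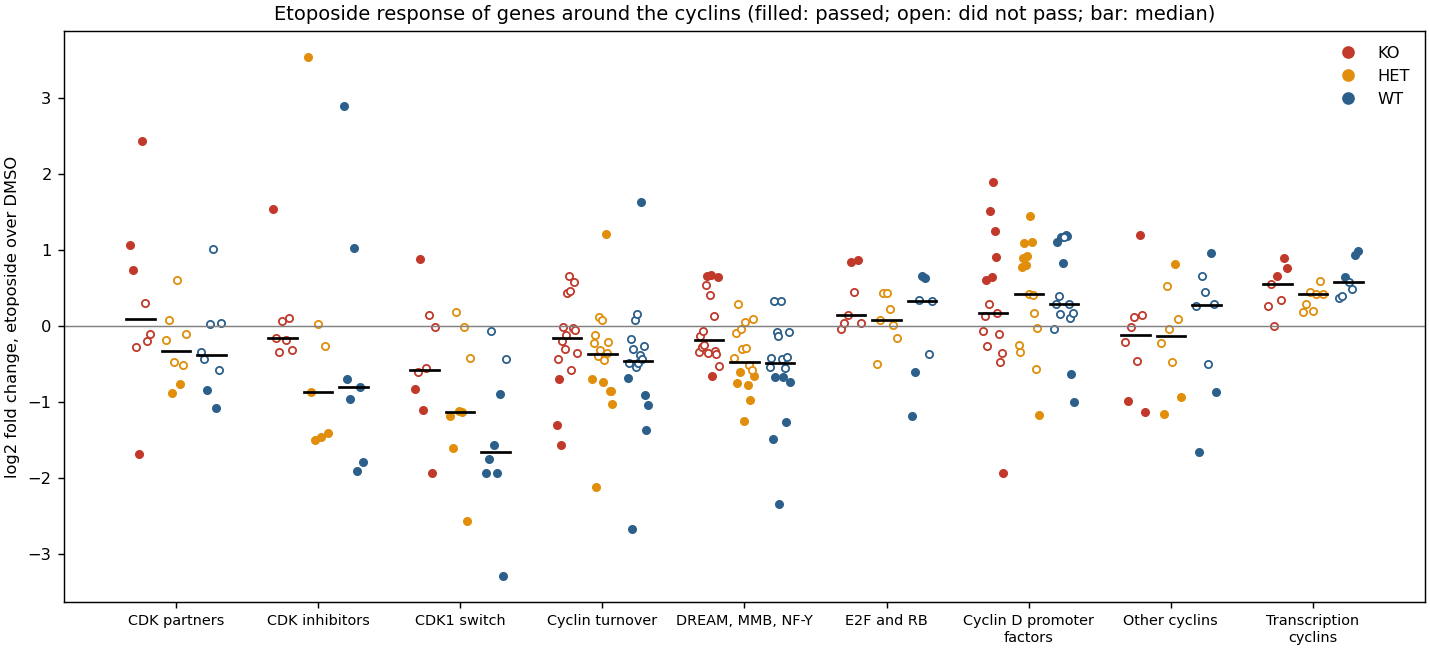
Log2 fold change of etoposide over DMSO (vertical axis) for each tested gene of the 9 lists around the cyclins, in KO, HET and WT cells. Filled points passed the test and bars mark the medians; the CDK1 switch list has its median at -0.58 in KO, -1.13 in HET and -1.66 in WT cells.

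The genes whose levels ran most like each cyclin were found by Pearson's r of log2 normalized counts over 29 libraries, without the 3 that stood apart, among 12697 genes with a mean of at least 50. These libraries share their groups, so r describes the pattern over 8 groups more than 29 separate points. CCNB1 ran with MXD3 (0.985), PIMREG (0.981) and KIF20A (0.978), and CCNB2 with RACGAP1 (0.984), CENPA (0.977) and CHEK2 (0.974). CCNA2 ran with OIP5 (0.978), NCAPH (0.973) and SPC24 (0.973). KIF20A and RACGAP1 act in cytokinesis, CENPA and SPC24 at centromeres and kinetochores, and NCAPH is a condensin subunit. CCND1 ran with KDSR (0.975), NSUN2 (0.966) and KPNA4 (0.959), CCND2 with EPN3 (0.962) and PLIN4 (0.945), and CCND3, more loosely, with TMEM158 (0.914), CEBPD (0.883) and GPR45 (0.880). CCNE1 ran with EMC3-AS1 (0.951), PARP9 (0.948) and RASSF1 (0.944), and CCNE2 with LNPK (0.976), OGFRL1 (0.972) and CDKN2AIP (0.971).

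Among the cyclins themselves, over the same 29 libraries, r was 0.949 between CCNB1 and CCNB2, 0.915 between CCNA2 and CCNB2, and 0.841 between CCNA2 and CCNB1. It was -0.949 between CCNB1 and CCND1 and -0.919 between CCNB2 and CCND2. CCNE1 and CCNE2 stood at 0.793, and CCND3 did not exceed 0.416 in size with any other cyclin.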

How the data were processed

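Poly-A RNA of U2OS cells was measured in 32 libraries, 4 per group. Per the submitters' processing notes, the authors processed the reads with kallisto and DESeq2 on GRCh38, whose versions the sources used here do not give. The authors deposited a matrix of variance-stabilized values on a log2 scale and, for 6 comparisons, a mean normalized signal, log2 fold changes, p-values, and the standard error and test score of each gene. The matrix was inverted to normalized counts, which averaged to the authors' mean signal with a relative error of at most 4.45e-14, and 100% of the recovered counts were whole within 0.01. The authors' values served as the start of every fit, and their fold changes are quoted where named.

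The 16824 genes that reached 10 normalized counts in 4 or more libraries were tested with limma 3.58.1 in R 4.3.3 (moderated test with a trend, two-sided, log2 of the normalized count plus 1, 1 mean per group, all libraries, 24 residual degrees of freedom, Benjamini-Hochberg adjustment over all genes of each of 16 contrasts). Fold changes are on this log2 scale, where the added 1 shrinks those of low genes; they compare means of logs, so for CCNE2, which varied widely between libraries, they can exceed the ratio of group means (19.2-fold against 14.4 in the HOM response). Passing meant an adjusted p below 0.05 with a change of 1.5-fold or more. The SE is pooled over all 8 groups, so it is too small where HOM with DMSO is compared and can be too large elsewhere. Tested on simulated data for the WT response, over 16824 genes, the fit recovered 88% of 100 genes changed 2-fold and 99% of 100 changed 4-fold, with 3 false calls. In the simulation all genes shared the same variability and no library stood apart in composition. These figures therefore do not describe genes that varied more in the real data, such as CCNE2.

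The members and lists were chosen with earlier results of these data known. All 8 cyclins are named, with CDKN1A as a check, up to 2 rising and 2 falling genes per list in the KO, HET and WT responses, and the 3 genes most like each cyclin, apart from items that are not reported here. Neighbouring genes and markers are named as context. CCNA1 and CDKN2A were below the filter. Replicate numbers were not treated as pairs in the main fit. The correlation of deviations was over 0.1 in 4 of 16 pairs (-0.0691 to 0.364). In 8 of the 16 the same-numbered control correlated best, so some pairing was not excluded. Alternatives were a pseudocount of 5, no filter, total-count scaling, quantile normalization, array weights, voom on recovered counts, the deposited values, compared groups only, a replicate block and leaving out libraries. No replicate pair was a duplicate. Figures were drawn with matplotlib 3.10.9.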

Additional observations from a re-analysis of the deposited data

Results flagged for a closer look

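Some values stood far from the other libraries of their group, by a test of the gap to the nearest library over the range of the group. They were the lowest CCNA2 value in HOM with etoposide (2214 normalized counts), the lowest CCNB1 value in KO with etoposide (4092), the lowest CCNB2 value in KO with DMSO (2601) and the highest CCNE1 value in WT with DMSO (1949). They came from 4 of 64 groups, and chance alone flags about 1 group in 20.

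The etoposide response differed between genotypes by the test of the difference itself in 14 cases. For KO minus WT these were CCNA2 (1.61), CCNB1 (1.01), CCNB2 (1.52), CCND2 (-0.80) and CCNE1 (0.97). For HOM minus WT they were CCNA2 (2.45), CCNB1 (0.89), CCNB2 (1.90), CCND2 (-0.86), CCNE1 (0.81) and CCNE2 (2.87). For HOM minus KO they were CCNA2 (0.84), CCND3 (-0.78) and CCNE2 (1.77), none of which passed without libraries 2 to 4 of HOM with DMSO.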

How the results depend on the processing

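Each of the 128 cyclin fold changes kept its direction and call with a pseudocount of 5 and with the replicate block, which moved no count of calls (3 in KO, 5 in HET, 5 in HOM and 6 in WT cells). Total-count scaling moved the median of all genes by 0.97 in the HOM response, 0.74 in HOM minus WT, 0.66 in HOM minus KO and 0.19 to 0.30 in the other responses. Under it CCNB1 (0.24), CCNB2 (0.94), CCND2 (0.94) and CCND3 (0.70) turned sign in the HOM response, as did CCND1 in HOM minus WT (0.68) and CCND2 in HOM minus KO (0.64). Counts of cyclins called moved to 5 for HOM minus KO responses, 4 for HET minus WT in etoposide and 5 for HOM minus KO in DMSO. They also moved to 4 in the KO response, 7 in the HOM response and 7 for HOM minus WT in etoposide. In DMSO they moved to 3 for HET minus WT and 4 for HOM minus WT. Quantile normalization turned CCNB1 (0.29), CCNB2 (0.59) and CCND2 (0.74) in the HOM response and CCNB1 in HOM minus KO responses (0.60), with a count of 5 for HOM minus KO responses and 2 for HET minus WT in etoposide. Its other moved counts were 4 in the KO, 6 in the HET and 6 in the HOM response. They were 5 for HOM minus WT responses and 7 for HOM minus WT in etoposide. In DMSO they were 3 for HET minus WT, 2 for HOM minus WT and 2 for HOM minus KO. Array weights gave 1 call for KO minus WT in DMSO. KO minus WT responses had 6 calls with array weights, compared groups only or the deposited values. HOM minus WT in DMSO had 2 with no filter, the deposited values or voom, and the HET response had 4 with no filter. With compared groups only, calls were 1 for HET minus WT responses, 1 for HOM minus KO responses, 0 for HOM minus WT in DMSO and 1 for HOM minus KO in DMSO. Without libraries 2 to 4 of HOM with DMSO, also with compared groups only, these 4 counts were 1, 0, 0 and 0. CCNE2 then turned sign in HOM minus KO responses (-0.0083), CCNA2 (0.14) and CCNE2 (0.76) in HOM minus WT in DMSO, and CCNA2 (0.097) and CCNE2 (0.13) in HOM minus KO in DMSO. Leaving out single libraries gave 0 to 1 calls for HET minus WT responses, 1 to 3 for HOM minus KO responses and 0 to 3 for HOM minus WT in DMSO. Calls also ran from 4 to 6 in the HET response and from 5 to 6 for KO minus WT responses. They ran from 6 to 7 for HOM minus WT in etoposide and from 2 to 3 for HOM minus KO in DMSO. The CHR letters stood in 4 promoters with the wider letters. The cause of these changes was not tested. CCNE2 rested on 5 to 18 recovered counts in libraries 2 to 4 of HOM with DMSO.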
